A study of Mus musculus with 2 samples.

Results

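The genes described here make and break down eicosanoids, signalling lipids derived from arachidonic acid. They were the 7 rows of the count matrices whose symbols were Ptgs1, Hpgds, Hpgd, Alox5ap, Alox5, Lta4h and Ltc4s, out of 26124 genes, and their levels were read in each cell class of each library. All 7 had at least 100 UMIs (unique molecular identifiers, each standing for 1 captured transcript) over the kept cells.

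Spleen cells bound by magnetic beads carrying anti-F4/80 antibody were sequenced in 2 droplet libraries, each from 1 mouse aged 12 to 16 weeks that had received no treatment. The wild-type-labelled library came from a control mouse that was homozygous for the α-globin deletion Hbatm1Paz, heterozygous for the β-globin deletion Hbbtm1Tow and hemizygous for the human sickle globin transgene Tg(HBA-HBBs)41Paz. The SCD-labelled library (sickle cell disease) came from a mouse homozygous for all of these alleles. By these labels both mice had a homozygous α-globin deletion and carried the transgene, so the control is not a mouse without it, and the strain has a mixed genetic background. With 1 mouse per condition, genotype, individual animal and library cannot be told apart, and no test between the conditions was possible.

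The wild-type-labelled matrix had 24144 barcodes with 145953464 UMIs in all and the SCD-labelled matrix 15442 with 73986356, of which 19418 and 12279 cells were kept. The 2 libraries shared 107 barcodes, 65 of them among the kept cells. The globin genes went against the labels. In erythroid-like cells Hbb-bs, an adult β-globin gene, was at 163 CPM (counts of UMIs per 1000000 UMIs of the class) in the wild-type-labelled library and at 64943 in the SCD-labelled library, whose label gives a homozygous β-globin deletion. For Hbb-bt, also an adult β-globin gene, these levels were 270 and 20191 CPM. The mouse α-globin gene Hba-a1 was at 31480 and 35114 CPM in erythroid-like cells, although the labels of both libraries give a homozygous α-globin deletion. For this reason the libraries are called by their labels throughout, and every direction rests on those labels.

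As background, the phospholipase cPLA2α (Pla2g4a) frees arachidonic acid from membranes, and the free acid enters either of 2 branches. In the cyclooxygenase branch, cyclooxygenase-1 (Ptgs1) makes prostaglandin H2, which hematopoietic prostaglandin D synthase (Hpgds) converts to prostaglandin D2, and 15-hydroxyprostaglandin dehydrogenase (Hpgd) inactivates prostaglandins. In the 5-lipoxygenase branch, the activating protein FLAP (Alox5ap) presents arachidonic acid to 5-lipoxygenase (Alox5), which makes leukotriene A4. Leukotriene A4 hydrolase (Lta4h) turns this into leukotriene B4, a neutrophil attractant, and leukotriene C4 synthase (Ltc4s) couples it to glutathione to give the first of the cysteinyl leukotrienes. Red pulp macrophages clear aged red cells in the spleen and recycle their iron. Erythroblastic islands are macrophages surrounded by developing red cells.

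All 7 were protein-coding genes in the GENCODE M21 annotation of GRCm38, to which they were matched by Ensembl identifier. Ptgs1 (ENSMUSG00000047250) lay at chr2:36230426-36252272 on the plus strand, Hpgds (ENSMUSG00000029919) at chr6:65117293-65144908 on the minus strand and Hpgd (ENSMUSG00000031613) at chr8:56294585-56321043 on the plus strand. Alox5ap (ENSMUSG00000060063) lay at chr5:149264767-149288153 on the plus strand, and Alox5 (ENSMUSG00000025701) at chr6:116410077-116461178 on the minus strand. Lta4h (ENSMUSG00000015889) lay at chr10:93453411-93484875 on the plus strand and Ltc4s (ENSMUSG00000020377) at chr11:50236461-50238616 on the minus strand. Hpgd was overlapped on its own strand by Gm45540, a gene model of unproven coding status, so reads of the pair are not fully separable.

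Because Ptgs1, Hpgds and Hpgd were all highest in the same macrophages, their upstream sequences are shown, as RefSeq gives them for GRCm38.p6, from 5′ to 3′ on the strand of the gene. The table held promoters for 6 of the 7 genes, all but Alox5ap. The letters GAGGAAGT, a core of the sites bound by PU.1 and by Spi-C, a factor of red pulp macrophages, were searched on both strands in the 250 bases before each start. They are in capitals. They occurred once each in Ptgs1 and Hpgds and were not found in Hpgd, Alox5, Lta4h or Ltc4s, and 2.44% of all 32851 promoters in the table held them. The letters TGACNNNGC, a core of the antioxidant response element, were found in none of the 6, against 10.2% of all promoters. The 250 bases before the Ptgs1 start (chr2:36230176-36230425, plus strand), 30 bases around the match of Hpgds (chr6:65144761-65144790, minus strand) and the 250 bases before the Hpgd start (chr8:56294302-56294551, plus strand) read:
Ptgs1: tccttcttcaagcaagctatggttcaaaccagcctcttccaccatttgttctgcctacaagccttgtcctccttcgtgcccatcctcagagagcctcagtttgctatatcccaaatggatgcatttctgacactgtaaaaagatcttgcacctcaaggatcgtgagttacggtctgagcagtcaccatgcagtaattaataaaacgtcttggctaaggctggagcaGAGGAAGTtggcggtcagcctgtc
Hpgds: gcttttaggtgGAGGAAGTggcctctggct
Hpgd: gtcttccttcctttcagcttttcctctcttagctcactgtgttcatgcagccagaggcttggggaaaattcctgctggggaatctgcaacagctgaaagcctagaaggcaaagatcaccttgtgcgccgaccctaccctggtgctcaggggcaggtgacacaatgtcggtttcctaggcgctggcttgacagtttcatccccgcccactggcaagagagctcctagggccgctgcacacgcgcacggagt
The match began 24 bases before the RefSeq start of Ptgs1 and 49 bases before that of Hpgds. The RefSeq start of Hpgds lay 178 bases downstream of the GENCODE gene start given above, so the printed bases were inside the GENCODE gene and touched an exon of 1 of its 3 transcripts. For Ptgs1 both starts were the same, and for Hpgd the RefSeq start lay 33 bases upstream. A match is a description of the sequence and not evidence of binding.

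Cells were grouped without the 7 genes, so that their levels played no part in naming the classes. The red pulp macrophage-like (RPM-like) class held 4750 cells of the wild-type-labelled library and 1648 of the SCD-labelled library, and the erythroblastic island-like (EBI-like) class, with both macrophage and erythroid transcripts, 3800 and 747. The other classes with at least 50 cells in both libraries were erythroid-like, Ly6c-high and Ly6c-low monocyte-like, type 2 conventional dendritic cell-like (cDC2-like), Ccr7-positive mature dendritic cell-like, B lymphocyte-like and T lymphocyte-like cells. Neutrophil-like cells (277 and 14) and granulocyte-monocyte progenitor-like cells (200 and 6) were described in the wild-type-labelled library alone. Levels are given in CPM with 95% exact Poisson intervals in parentheses, which cover counting error only. B lymphocyte-like cells, which should not express macrophage genes, served as the measure of free RNA, and in them Vcam1, a macrophage marker, was still at 1033 and 664 CPM. Fewer transcripts per cell and fewer expressing cells within a class cannot be told apart from summed UMIs.

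**Figure D1:**
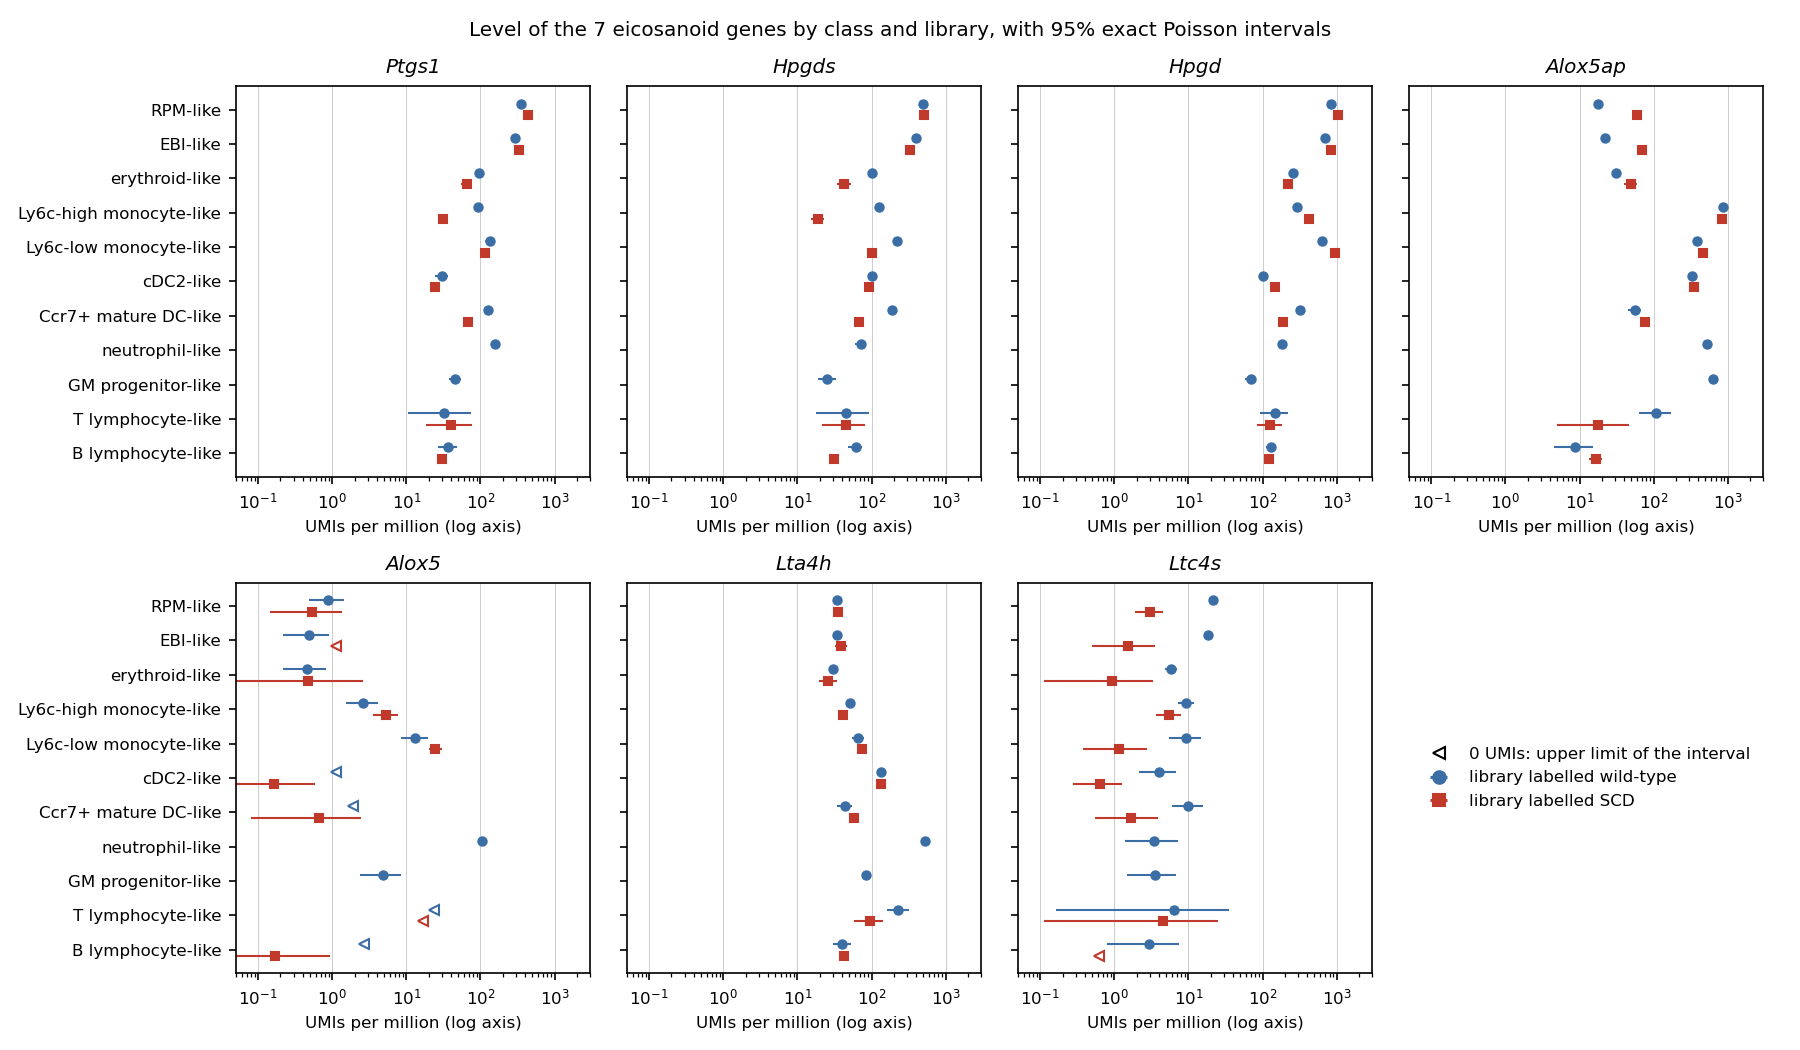
CPM (x, log axis) of each of the 7 genes in the 11 cell classes (y), for the wild-type-labelled library (circles) and the SCD-labelled library (squares). Bars are 95% exact Poisson intervals, and open triangles mark the upper limit where no UMI was counted. Ptgs1, Hpgds and Hpgd peak in RPM-like cells of both libraries, and Alox5ap in Ly6c-high monocyte-like cells. Ltc4s is lower in the SCD-labelled library in each class drawn for both, with few UMIs and overlapping intervals in some.

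The genes of the cyclooxygenase branch were macrophage genes in both libraries. Ptgs1 was highest in RPM-like cells, at 357 (348 to 366) CPM in the wild-type-labelled library and 444 (429 to 459) in the SCD-labelled library, followed by EBI-like cells at 293 (285 to 300) and 330 (310 to 350). The intervals of these first 2 classes did not overlap in either library. All other classes were at or below 159 CPM. In the thinned cells, in which every cell was reduced to 1000 UMIs so that depth does not set the share, 26.8% and 35.5% of RPM-like cells had a Ptgs1 UMI, against 2.67% and 2.81% of B lymphocyte-like cells. Shallower cells were left out, which kept 4065 of the 4750 and 1499 of the 1648 RPM-like cells. Without thinning the shares were 53.0% and 70.1% against 8.13% and 8.12%, at median depths of 2139.5 and 4090 UMIs in RPM-like cells and 2198 and 2894.5 in B lymphocyte-like cells.

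Hpgds had the same order. It stood at 497 (487 to 508) and 511 (495 to 528) CPM in RPM-like cells and at 396 (387 to 405) and 330 (311 to 350) in EBI-like cells. A Hpgds UMI was found in 29.2% and 37.8% of thinned RPM-like cells and in 4.58% and 3.34% of B lymphocyte-like cells (50.8% and 71.4%, and 12.5% and 8.93%, without thinning). Within the RPM-like cells of the wild-type-labelled library it was uneven. Cluster 3, led by unannotated gene models and with a median of 7410 UMIs per cell over both libraries, held 696 Hpgds CPM, and cluster 4, led by Marco and with a median of 1638, held 270. This 2.58-fold gap (log2 1.37, 1.29 to 1.44) went with a difference of only 1.13-fold in Vcam1, 1.20-fold in Ptgs1 and an opposite one in Hpgd, at 734 and 956 CPM. The part of RNA quality or depth in it was not tested.

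Hpgd was at 836 (823 to 850) and 1050 (1027 to 1073) CPM in RPM-like cells. Its next class differed between the libraries. In the wild-type-labelled library EBI-like cells came second at 705 (693 to 717), followed by Ly6c-low monocyte-like cells at 642 (605 to 679), while in the SCD-labelled library Ly6c-low monocyte-like cells came second at 936 (907 to 966), followed by EBI-like cells at 827 (796 to 858). A Hpgd UMI was found in 57.2% and 62.2% of thinned RPM-like cells, in 42.0% and 53.6% of Ly6c-low monocyte-like cells, and in 12.0% and 9.78% of B lymphocyte-like cells. Without thinning these shares were 80.6% and 89.2%, 71.0% and 82.3%, and 24.2% and 25.5%.

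Macrophage RNA was present at some level in every class, so each gene was set against Vcam1 as a multiple of its level in B lymphocyte-like cells. RNA from a single source would keep the 2 genes in 1 ratio in every class. In Ly6c-low monocyte-like cells Hpgd was at 4.93 and 7.66 times the B lymphocyte-like level, where Vcam1 was at 2.87 and 3.08 times. In Ly6c-high monocyte-like cells of the SCD-labelled library Hpgd was at 3.51 times, while Vcam1 was at 0.66, Hpgds at 0.61 and Ptgs1 at 1.04 times. In those of the wild-type-labelled library the multiples lay close together, at 2.24 for Hpgd, 2.00 for Vcam1, 2.05 for Hpgds and 2.58 for Ptgs1. Hpgd therefore stood above Vcam1 in Ly6c-low cells of both libraries and in Ly6c-high cells of the SCD-labelled library. In Ly6c-high cells of the wild-type-labelled library the gap was small. Intervals were not calculated for the multiples, so it cannot be told from counting error.

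Hpgds and Ptgs1 also stood above Vcam1 in some classes outside the macrophages. In cDC2-like cells Hpgds was at 1.65 and 2.98 times the B lymphocyte-like level, with Vcam1 at 0.73 and 0.83 times and Ptgs1 at 0.83 and 0.82 times. The cDC2-like signal came mostly from cluster 18, at 128 and 101 Hpgds CPM, and less from cluster 21, led by Cep55 and Pimreg, at 54.2 and 38.9. In neutrophil-like cells Ptgs1 was at 159 (142 to 177) CPM, 4.39 times the B lymphocyte-like level, with Vcam1 at 1.45, Hpgds at 1.18 and Hpgd at 1.38 times. In granulocyte-monocyte progenitor-like cells Ptgs1 was at 1.26 times, with Vcam1 at 0.52, Hpgds at 0.42 and Hpgd at 0.53 times. In erythroid-like cells the multiples were closer to each other, at 1.64 and 1.37 for Hpgds, 1.98 and 1.80 for Hpgd and 2.61 and 2.16 for Ptgs1, with Vcam1 at 2.02 and 1.72.

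**Figure D2:**
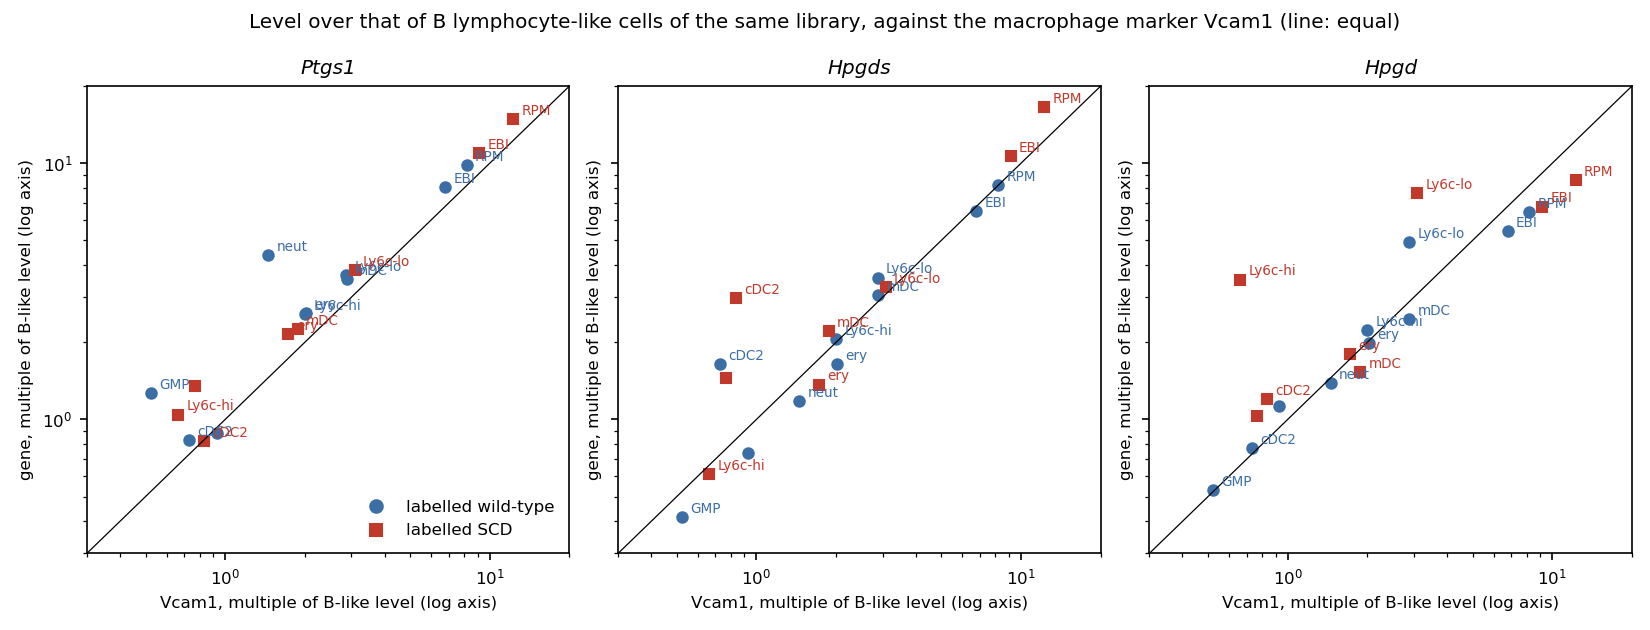
Level of Ptgs1, Hpgds and Hpgd (y) against that of Vcam1 (x), each as a multiple of its level in B lymphocyte-like cells of the same library, on log axes, with 1 point per class and library. Unlabelled points are T lymphocyte-like cells. Most classes lie near the line of equal multiples, while Hpgd lies above it in Ly6c-low monocyte-like cells, Hpgds in cDC2-like cells and Ptgs1 in neutrophil-like cells.

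The 5-lipoxygenase branch was held by other cells, and its steps were highest in different classes. Alox5ap was highest in Ly6c-high monocyte-like cells, at 871 (849 to 893) and 845 (820 to 870) CPM. In the wild-type-labelled library granulocyte-monocyte progenitor-like cells followed at 628 (596 to 661) and neutrophil-like cells at 532 (501 to 565). The Ly6c-low monocyte-like class was at 383 and 468 CPM and cDC2-like cells at 325 and 354, while Ccr7-positive mature dendritic cell-like cells, at 55.3 and 77.0, held far less than cDC2-like cells. RPM-like cells were near the bottom of the order, at 17.6 and 60.2 CPM, above B lymphocyte-like cells at 8.68 and 16.6. An Alox5ap UMI was found in 59.96% and 57.2% of thinned Ly6c-high monocyte-like cells and in 0.57% and 1.81% of B lymphocyte-like cells (98.2% and 96.6%, and 2.08% and 4.76%, without thinning).

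Alox5 itself was rare. In the wild-type-labelled library 213 of its 340 UMIs were in the 277 neutrophil-like cells, at 105 (91.4 to 120) CPM. Ly6c-low monocyte-like cells came next, at 13.1 (8.40 to 19.5) CPM. Among the SCD-labelled classes with at least 50 cells they were the highest, at 24.6 (20.2 to 29.8). The 14 SCD-labelled neutrophil-like cells, left out of that order, held 3 Alox5 UMIs. Ly6c-high monocyte-like cells, which had the most Alox5ap, were at 2.62 and 5.32 CPM. In RPM-like cells only 15 and 4 Alox5 UMIs were counted, 0.88 (0.49 to 1.45) and 0.53 (0.14 to 1.35) CPM. EBI-like cells held 9 and 0 UMIs, the latter allowing up to 0.912 CPM when a count of 0 is taken to allow 3.

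Lta4h was found in all classes. It was highest in neutrophil-like cells, at 526 (495 to 558) CPM, and among the classes described in both libraries it was high in cDC2-like cells, at 134 (122 to 148) and 133 (126 to 139). Within the cDC2-like class it was at 153 (132 to 176) and 174 (155 to 195) CPM in cluster 21 and at 123 (108 to 139) and 126 (119 to 133) in cluster 18, and the intervals of the clusters were apart in the SCD-labelled library only. RPM-like cells, at 34.2 (31.5 to 37.1) and 34.8 (30.7 to 39.2), stood at 0.84 and 0.82 times the level of B lymphocyte-like cells, so no Lta4h above the B lymphocyte-like level was detected in them. T lymphocyte-like cells were at 230 (161 to 319) and 94.6 (58.6 to 145) CPM, from 36 and 21 UMIs in 57 and 71 cells. By its markers this class was mixed. The 6 T lymphocyte markers summed to 1446 and 2037 CPM, beside 4588 and 54.1 for the 5 eosinophil markers. The 7 basophil or mast cell markers summed to 160 and 18.0, and the 5 natural killer cell markers to 441 and 383. The part of such cells in the Lta4h level was not tested.

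Ltc4s was the only member of this branch that was highest in macrophages, and only in the wild-type-labelled library. There it was at 21.7 (19.5 to 24.0) CPM in RPM-like cells and 18.4 (16.5 to 20.5) in EBI-like cells, 7.49 and 6.36 times the B lymphocyte-like level, with Vcam1 at 8.17 and 6.77 times. The B lymphocyte-like level of Ltc4s rested on 4 UMIs, so its multiples are imprecise. In RPM-like and EBI-like cells of the SCD-labelled library Ltc4s was at 3.03 (1.92 to 4.55) and 1.52 (0.49 to 3.55). Its highest class there was Ly6c-high monocyte-like cells, at 5.51 (3.66 to 7.97). That rank rested on a single cell with 21 of the 28 UMIs, and without it those cells were at 1.38 CPM, under RPM-like cells. B lymphocyte-like cells of that library held no Ltc4s UMI, which allows up to 0.508 CPM. Mast cells, basophils and eosinophils are known sources of leukotriene C4 synthase, and of the 7 basophil or mast cell markers Mcpt8, Ms4a2 and Prss34 were at 0 in RPM-like cells of both libraries, with all 7 summing to 0.41 and 0.26 CPM. The 5 eosinophil markers summed to 1474 and 1140 CPM, so that list did not separate eosinophils from RPM-like cells.

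Between the libraries the cyclooxygenase genes stayed within 2-fold in RPM-like cells, and 2 genes of the 5-lipoxygenase branch differed in opposite directions. A gene was taken as different when its level changed by at least 2-fold and it had at least 100 UMIs in the class over both libraries. By this rule 2 of the 6 members with enough UMIs differed in RPM-like cells, beside 13.3% of 10021 genes. Of these, 1 was higher in the SCD-labelled library, as were 8.99% of genes, and 1 lower, as were 4.26%. The clusters differed too, since wild-type-labelled cells were nearly all in clusters 3 and 4 (1121 and 3587 cells, against 7 and 27 of the other library) and SCD-labelled cells in cluster 24 (1614, against 42), led by Rgs1 and Adamdec1, and a difference between clusters cannot be told apart from one between libraries here. The median log2 ratio of the 6 members was 0.18 and that of all genes tested 0.20.

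Ltc4s was lower by 7.16-fold in RPM-like cells of the SCD-labelled library. It had 370 UMIs in the wild-type-labelled library and 23 in the SCD-labelled library (log2 ratio −2.84, counting interval −3.52 to −2.23), while Vcam1 had a log2 ratio of −0.05 and C1qa, another macrophage gene, one of −0.23. In EBI-like cells it had 345 and 5 UMIs (log2 ratio −3.60, −5.23 to −2.36). The lower level was seen in each macrophage cluster with at least 50 cells of a library. The wild-type-labelled cells were at 19.1 (cluster 3), 24.7 (cluster 4), 17.7 (cluster 14), 18.6 (cluster 16) and 19.0 (cluster 20) CPM, and the SCD-labelled cells at 3.06 (cluster 24) and 1.65 (cluster 25). The 42 wild-type-labelled cells of cluster 24 held 1 UMI, too few to place them (12.4 CPM, 0.313 to 68.9). The lower level was also counted outside the macrophage clusters, where macrophage RNA was present too. Ltc4s was lower in the SCD-labelled library in all 18 clusters with at least 40 cells of each library. This held for none of the other 6 genes, and the share of all genes for which it held was not counted. Some of these clusters held few Ltc4s UMIs, with 4 and 0 in B lymphocyte-like and 1 and 1 in T lymphocyte-like cells. In others the intervals of the libraries overlapped. Cluster 8 was at 15.7 (12.9 to 19.0) and 8.43 (1.02 to 30.4) CPM. Cluster 6 was at 9.08 (6.99 to 11.6) and at 0 with an upper limit of 8.19. The part of free macrophage RNA in these clusters was not tested, so they may not be independent of the macrophage difference.

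The UMIs of RPM-like cells were spread over many cells, 314 in the wild-type-labelled library with at most 4 UMIs in a cell and 18 in the SCD-labelled library with at most 3. In Ly6c-high monocyte-like cells they were not. The SCD-labelled library had 28 UMIs in 4 cells, 21 of them in 1 cell, and the wild-type-labelled library had 64 UMIs in 44 cells, 16 of them in 1 cell. With all cells the levels were 9.30 and 5.51 CPM (log2 ratio −0.75, −1.45 to −0.09), and without these 2 cells 6.98 and 1.38, so the size of this ratio rested on them. The SCD-labelled cell also held 16 Alox5ap UMIs, 1 Alox5 UMI and 266 UMIs of the Ly6c-high monocyte markers among its 14589. It had 20 UMIs of the megakaryocyte or platelet markers, all of them Pf4 (platelet factor 4), and the wild-type-labelled cell had 19, also all Pf4, out of 48 and 68 such UMIs in the whole class, which were found in 8 of 846 and 21 of 1015 cells. The SCD-labelled cell had no UMI of the basophil or mast cell, eosinophil or neutrophil markers, and the wild-type-labelled cell had 9 of the eosinophil markers. The 2 cells were singled out after their values were seen. In the other classes outside the macrophages with UMIs in both libraries its log2 ratio lay between −2.98 in Ly6c-low monocyte-like cells (17 and 5 UMIs) and −2.57 in Ccr7-positive mature dendritic cell-like cells (19 and 5 UMIs), except for T lymphocyte-like cells with 1 UMI each.

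Alox5ap was higher by 3.42-fold in RPM-like cells of the SCD-labelled library. It had 300 and 457 UMIs there (log2 ratio 1.78, 1.56 to 1.99), and in EBI-like cells 408 and 230 UMIs (log2 ratio 1.68, 1.44 to 1.92). Wild-type-labelled cells were between 17.2 and 22.7 CPM in the 5 macrophage clusters that held at least 50 of them, and SCD-labelled cells at 60.5 in cluster 24 and 70.5 in cluster 25. Within cluster 24, however, the 42 wild-type-labelled cells were at 74.2 (27.2 to 162, from 6 UMIs), not below the SCD-labelled cells of the same cluster, and within cluster 16 the 37 SCD-labelled cells were at 80.6 (46.1 to 131, from 16 UMIs). Over the 18 clusters with at least 40 cells of each library Alox5ap was higher in the SCD-labelled library in 9 and lower in 9. The level of Alox5ap in B lymphocyte-like cells was higher as well, at 8.68 and 16.6 CPM, and with the B lymphocyte-like level of each library subtracted the log2 ratio in RPM-like cells was 2.29. Markers of the cells that held most Alox5ap moved both ways in RPM-like cells. The 6 Ly6c-high monocyte markers summed to 47.4 and 37.9 CPM and the 8 neutrophil markers to 115 and 6.98, while the 8 cDC2 markers summed to 41.4 and 86.0 and the 7 Ly6c-low monocyte markers to 716 and 1442. None of the 6, 8 or 7 monocyte and cDC2 markers was at 0 in either library. The part of these cells in the difference was not tested. In Ly6c-high monocyte-like and cDC2-like cells Alox5ap differed little, with log2 ratios of −0.04 (−0.10 to 0.01) and 0.12 (0.03 to 0.22). The call in EBI-like cells was lost under 3 other ways of choosing or clustering cells, with log2 ratios of 0.56 when cells with at least 200 genes and no upper limit were kept, 0.59 at a coarser clustering and 0.88 when each library was clustered on its own.

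**Figure D3:**
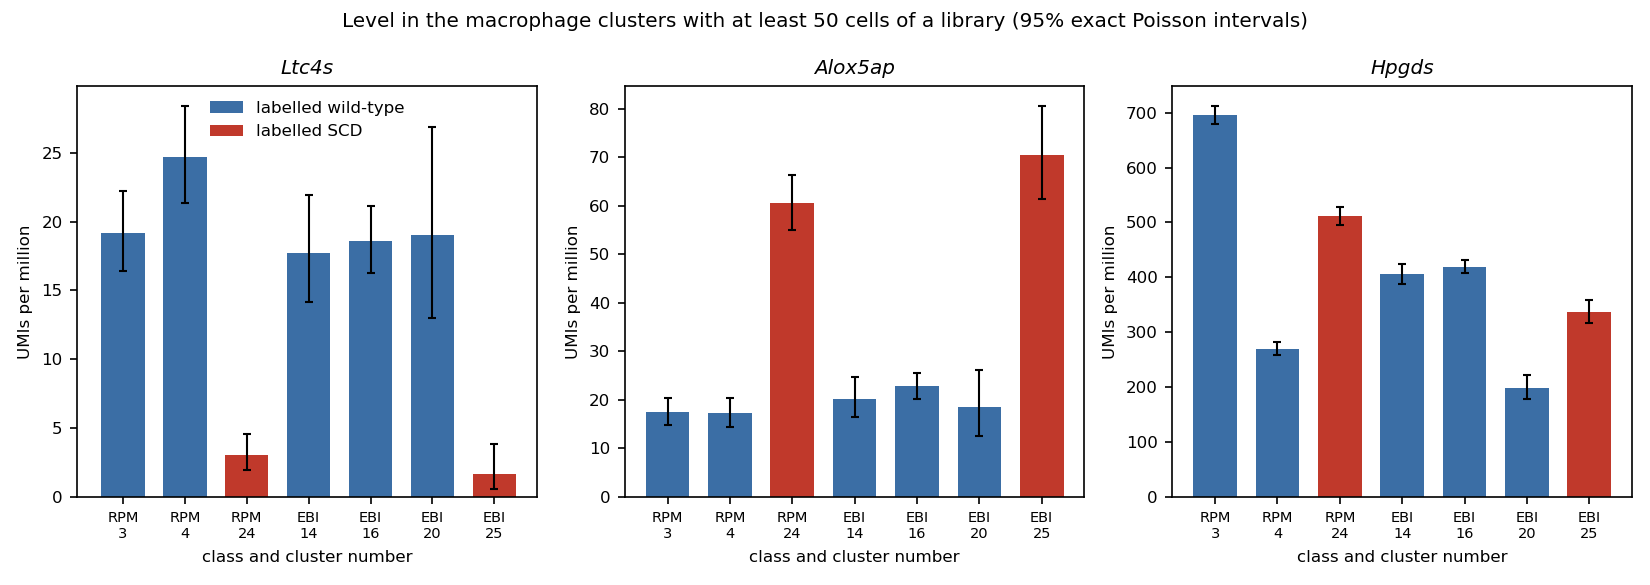
CPM of Ltc4s, Alox5ap and Hpgds in each RPM-like (RPM) and EBI-like (EBI) cluster that held at least 50 cells of a library, blue for the wild-type-labelled library and red for the SCD-labelled library, with 95% exact Poisson intervals. All 5 wild-type-labelled clusters lie above both SCD-labelled clusters for Ltc4s and below them for Alox5ap, while Hpgds varies from 199 to 696 among the wild-type-labelled clusters.

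The other 4 members with enough UMIs stayed within 2-fold in RPM-like cells. Ptgs1 had a log2 ratio of 0.32 (0.26 to 0.38), Hpgd of 0.33 (0.29 to 0.37), Hpgds of 0.04 (−0.01 to 0.10) and Lta4h of 0.02 (−0.19 to 0.24), against the median of 0.20 for all genes. In EBI-like cells 2 of 6 members differed, again Alox5ap and Ltc4s, beside 13.2% of 9624 genes, with 5.41% higher and 7.82% lower. In cDC2-like cells none of 5 did, beside 3.8% of 9456 genes, and in B lymphocyte-like cells none of 5, beside 2.22% of 7805. Other processing did not always keep these ratios within 2-fold. In cDC2-like cells Ptgs1 passed it in 6 of 8 alternatives (−2.36 to −0.04) and Hpgds in 3 of 9 (−1.24 to 0.65). In B lymphocyte-like cells Hpgds passed it in 5 of 8 alternatives (−2.80 to −0.43), and Ptgs1, Hpgd and Alox5ap in 2 of 8 each. In T lymphocyte-like cells no member had enough UMIs.

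In 4 further classes 1 or 2 members passed 2-fold, each of them lower in the SCD-labelled library: Hpgds in all 4, Ptgs1 in Ly6c-high monocyte-like cells and Ltc4s in erythroid-like cells. Among Ly6c-high monocyte-like cells 2 of 5 members differed, beside 7.97% of 8478 genes, and both were lower in the SCD-labelled library, as were 5.24% of genes. Hpgds went from 125 (116 to 133) to 18.9 (15.3 to 23.1) CPM (log2 ratio −2.72) and Ptgs1 from 93.4 to 31.3 (log2 ratio −1.58), beside log2 ratios of −2.23 for Vcam1 and −2.24 for C1qa. Hpgd moved the other way in the same cells, from 291 (279 to 304) to 429 (411 to 448) CPM (log2 ratio 0.56). In Ccr7-positive mature dendritic cell-like cells 1 of 5 members differed, Hpgds (log2 ratio −1.44), beside 6.81% of 6385 genes (4.81% lower), Vcam1 at −1.25 and C1qa at −1.59. In erythroid-like cells 2 of 6 differed, Hpgds (−1.24) and Ltc4s (−2.64), beside 7.7% of 9520 genes (6.29% lower), Vcam1 at −0.87 and C1qa at −1.24. The Ltc4s ratio there came from 128 and 2 UMIs. Its counting interval was −5.70 to −0.76 and that of Hpgds −1.56 to −0.93, so both reached values under 2-fold. In Ly6c-low monocyte-like cells 1 of 6 differed, Hpgds (−1.09), beside 4.74% of 7041 genes (2.41% lower), Vcam1 at −0.54 and C1qa at −0.78. The part of free macrophage RNA in these differences was not tested. Some calls were lost under other processing: Ptgs1 in Ly6c-high monocyte-like cells came to between −0.84 and −0.80 in 3 alternatives, Hpgds in erythroid-like cells to between −0.86 and −0.04 in 3, and Hpgds in Ly6c-low monocyte-like cells to −0.94 in 1. Hpgds in Ly6c-high monocyte-like cells was past 2-fold in all 8 alternatives that gave a value, from −2.90 to −1.22. Alox5 reached 100 UMIs only in Ly6c-low monocyte-like cells, where its log2 ratio was 0.91 (0.26 to 1.62), from 24 and 105 UMIs.

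**Figure D4:**
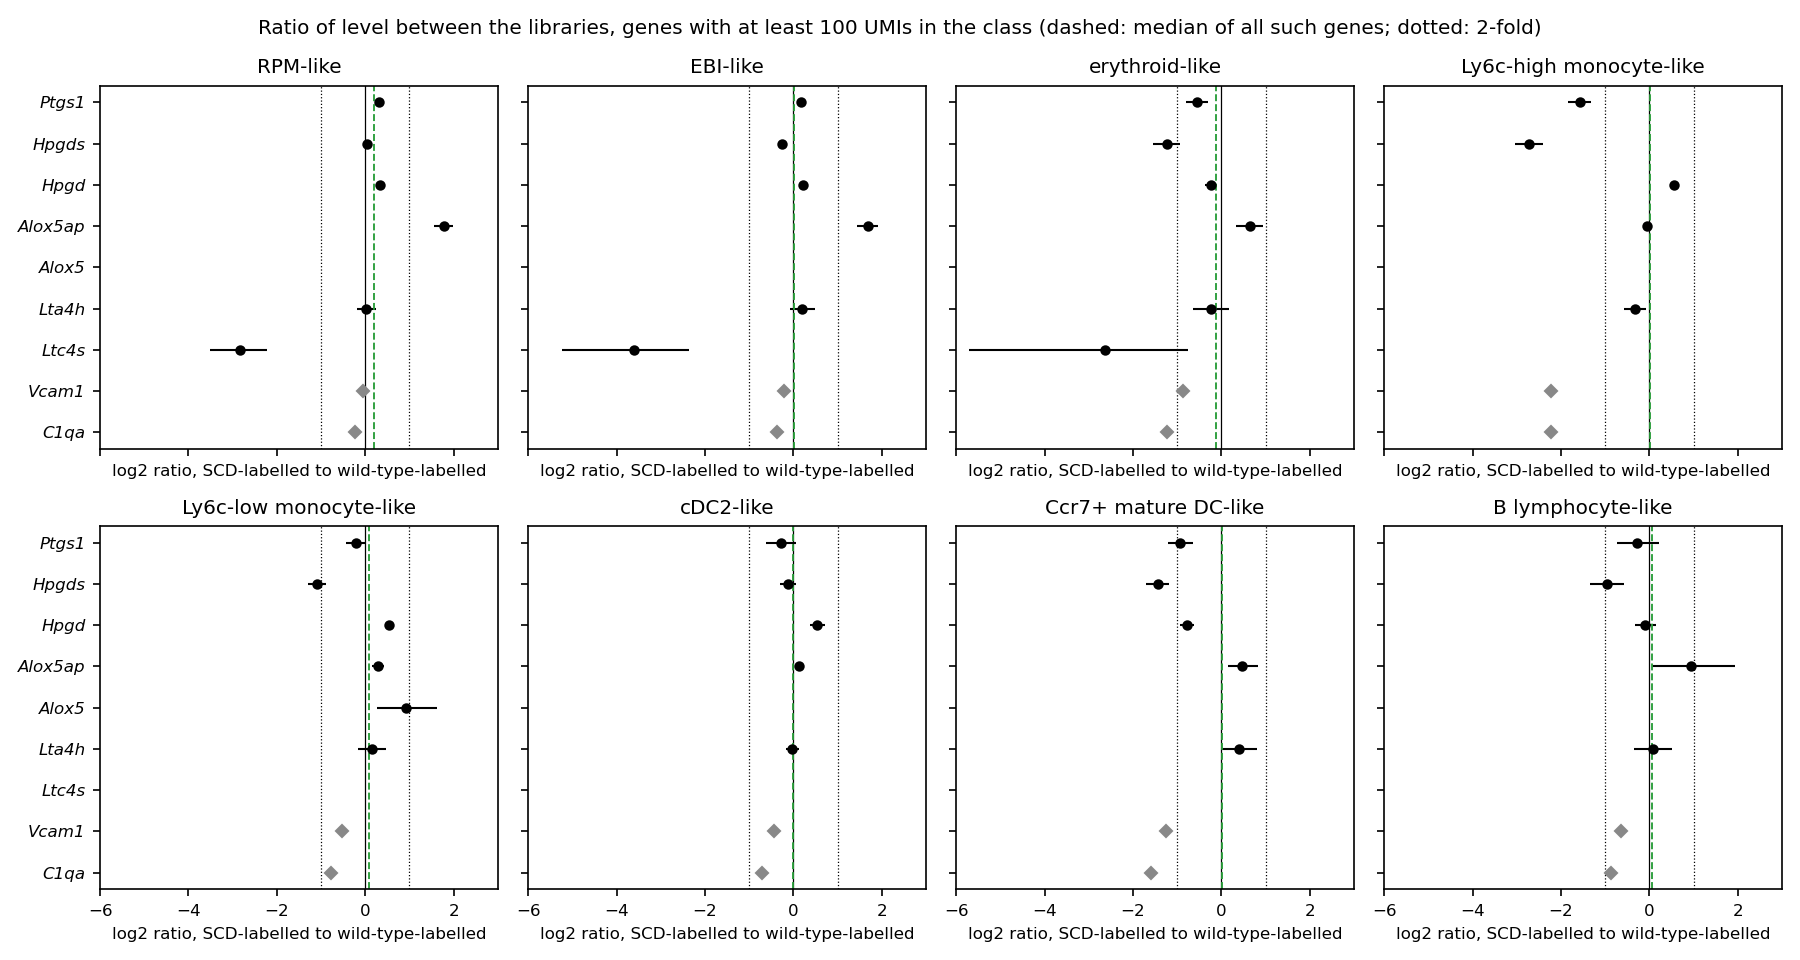
Log2 ratio of level, SCD-labelled library to wild-type-labelled library (x), of the members (black circles) and of the macrophage markers Vcam1 and C1qa (grey diamonds) with at least 100 UMIs in a class, with counting intervals of 95%. The dashed line is the median of all genes tested in the class and dotted lines mark 2-fold. Ltc4s and Alox5ap lie past 2-fold in RPM-like and EBI-like cells, and Hpgds lies left of the 2-fold line beside the markers in Ly6c-high monocyte-like cells.

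Over all kept cells, without regard to class, 1 of 7 members differed (Ltc4s, 12.3 and 1.73 CPM, log2 ratio −2.83), beside 21.8% of 13015 genes, with 9.78% lower. Ptgs1 (188 and 124 CPM) and Hpgds (252 and 146) were lower in the SCD-labelled library over all cells although they were not in RPM-like cells. RPM-like and EBI-like cells made up 24.5% and 19.6% of the wild-type-labelled library and 13.4% and 6.08% of the SCD-labelled library.

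The likeness of the members' patterns was described over 20 points, the classes of each library with at least 50 cells, which share free RNA and, within a library, depth. Pearson's r of log2(CPM + 1) was 0.85 between Ptgs1 and Hpgds, 0.81 between Ptgs1 and Hpgd and 0.74 between Hpgds and Hpgd. In the other branch it was 0.63 between Alox5ap and Alox5 and 0.46 between Alox5 and Lta4h, but −0.09 between Lta4h and Ltc4s. Ltc4s was closer to Hpgds (0.45) and Ptgs1 (0.42) than to any gene of its own branch. Among 13015 genes the 3 most like Ptgs1 were Galnt3 (0.97), the iron exporter gene Slc40a1 (0.96) and Acot1 (0.96), and those most like Hpgds were Ppp1r12b (0.95), Gfra2 (0.95) and Slc16a9 (0.94). Hpgd was most like Treml4 (0.96), which was also a marker of the Ly6c-low monocyte-like class, Pilrb1 (0.95) and Gm45540 (0.94), the gene model that overlaps it. The genes most like Alox5ap were Ifitm6, Ifitm3 (0.94 each) and Apaf1 (0.93), those most like Alox5 were Tnfsf13b (0.95), Gpr84 (0.94) and Chil1 (0.92), and those most like Lta4h were Pxylp1 (0.88), Dhrs9 (0.87) and Hdc (0.86). Ltc4s was most like S100a1 (0.92), Selenop (0.88) and 0610012G03Rik (0.87).

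Of 36 further genes of the pathway (release, other synthases, breakdown, transport and receptors), 19 had at least 100 UMIs in RPM-like cells. Of these 2 were higher and 2 lower by at least 2-fold in the SCD-labelled library, beside 8.99% and 4.26% of all 10021 genes, and their median log2 ratio was 0.07 beside 0.20 for all genes. Ptgis, which makes prostacyclin, went from 67.5 to 139 CPM (log2 ratio 1.05, 0.92 to 1.17), and Slco2a1, which carries prostaglandins into cells, from 1.17 to 11.5 (log2 ratio 3.29, 2.58 to 4.07, from 20 and 87 UMIs). Ptgr1, which takes part in the breakdown of prostaglandins and leukotriene B4, went from 7.56 to 1.45 CPM (log2 ratio −2.38, −3.42 to −1.50) and Ephx2, the soluble epoxide hydrolase, from 7.09 to 1.45 (log2 ratio −2.29, −3.33 to −1.40).

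There were 23 pathway genes with at least 20 UMIs in some class of each library, and only such classes were ranked for a gene. Of these genes, 6 were highest in RPM-like cells of both libraries, as Ptgs1, Hpgds and Hpgd were. They were Pla2g4a (98.6 and 161 CPM), the thromboxane synthase gene Tbxas1 (253 and 265), Ptgis, Slco2a1, the carbonyl reductase gene Cbr1 (15.6 and 10.7) and the cysteinyl leukotriene receptor gene Cysltr2 (5.10 and 7.24). Some classes left out for few UMIs were higher. In the wild-type-labelled library B lymphocyte-like cells held Slco2a1 at 2.17 CPM (3 UMIs) and T lymphocyte-like cells Cbr1 at 25.6 (4 UMIs). T lymphocyte-like cells held Cysltr2 at 12.8 and 18.0 CPM (2 and 4 UMIs). Ptgs2, which encodes the inducible cyclooxygenase, had 4 and 3 UMIs in RPM-like cells and 42 and 69 over all named classes, and Ptgds, the other prostaglandin D synthase gene, had none in any. Ltb4r1, the receptor for leukotriene B4, was highest in neutrophil-like cells at 281 CPM, as Lta4h and Alox5 were. Cyp4f18, which inactivates leukotriene B4, and Dpep2, which processes cysteinyl leukotrienes, were highest in Ly6c-low monocyte-like cells (192 and 306, and 46.4 and 33.1 CPM). Alox5 was highest there among the ranked classes of the SCD-labelled library. Ggt5, which also processes cysteinyl leukotrienes, and Ptger3, a receptor for prostaglandin E2, were highest in cDC2-like cells (82.1 and 114, and 29.95 and 36.3 CPM). Lta4h was highest there among the ranked classes of the SCD-labelled library. The 14 SCD-labelled neutrophil-like cells were too few to be ranked. They held 23 Lta4h and 3 Alox5 UMIs, and were at 570 and 35.1 CPM without the cell richest in each gene.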

How the data were processed

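Raw UMI counts per gene and cell were deposited by the authors, 1 matrix per library. Per the submitters' processing notes they were made with Cell Ranger 4.0.0 on GRCm38.p6, while the matrix headers name version 3.1.0. The dendritic cell-enriched samples of the study were not analysed here. Fewer UMIs in a class give wider intervals, and all intervals cover counting error only, for a single mouse per library.

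The cell filter asked for 500 to 5000 detected genes, less than 15% of UMIs from mitochondrial genes and less than 30% from ribosomal-protein genes. Size factors came from scran 1.30.0 (R 4.3.3). Both libraries were clustered together in scanpy 1.11.5 (python-igraph 0.11.9, Python 3.11.15) with 2000 variable genes, 30 principal components, 15 neighbours and Leiden resolution 1, leaving out the 7 genes, 36 further pathway genes, hemoglobin genes and sex-linked genes. Doublets were left in and removed in an alternative by Scrublet, whose own threshold called 0 wild-type-labelled cells, so that its top 10% of scores was taken (2046 cells), and 1712 SCD-labelled cells.

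Clusters were named from marker lists, with limits set after a clustering had been seen. RPM-like clusters had a median macrophage marker level of at least 4 times that of B lymphocyte-like cells, and EBI-like clusters also at least 2 times their erythroid level. Other names needed 3 markers found in at least 10% of cells and at 2 times the level of other cells. Clusters with over 35% doublets, with more leading markers of another class, or led by hemoglobin genes outside the EBI-like and erythroid-like classes were left unnamed.

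UMIs were summed per class and library and divided by the class total to give CPM (scipy 1.17.1, pandas 2.3.3). Intervals were exact Poisson for levels, exact binomial for shares and exact conditional binomial for log2 ratios. The members and lists were chosen with earlier results of these data known. Pathway genes were named where they had at least 100 UMIs and a 2-fold difference in RPM-like cells, or were highest in the same class as a member, and the most similar genes were the top 3 by correlation. The motifs and the single cells rich in Ltc4s were chosen after values were seen. In counts simulated for the RPM-like comparison (10021 genes), the direction was recovered for 100% of 200 changed genes and 95.3% of intervals held the true ratio. These counts were drawn with counting error alone. They check the calculation and say nothing about differences between mice, clusters or free RNA. Alternatives changed the cell filter, doublets, clustering, size factors, denominator, averaging, free RNA, the UMI minimum and thinning.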

Additional observations from a re-analysis of the deposited data

How the results depend on the processing

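With 1 library per condition no library could be left out. No paired analysis was possible because each condition has 1 sample. The number of members past 2-fold in RPM-like cells was 2 under all alternatives, including a background of genes with at least 20 UMIs, of which 19.0% of 12069 were past 2-fold. The Ltc4s log2 ratio in RPM-like cells lay between −3.07 and −2.63 over 10 alternatives and that of Alox5ap between 1.67 and 2.29. The latter moved outside its counting interval without doublets (2.16) and with the free RNA level subtracted (2.29), and the cause was not tested. Taking RPM-like and EBI-like cells as 1 class, an alternative chosen after seeing the data, gave −2.96 and 1.67. Of 90 alternative values for the 10 ratios past 2-fold, all 90 had the same sign and 80 were still past 2-fold. Over all 44 ratios, 350 of 389 values had the same sign. Subtracting the free RNA level gave no value where a class lay at or below that level, as for Lta4h in RPM-like cells. Shares of cells rose with depth, for Ptgs1 in RPM-like wild-type-labelled cells from 26.8% at 1000 UMIs to 48.5% at 2000 and 53.0% without thinning. The depth limits Alox5 most, with 19 UMIs in RPM-like cells over both libraries.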

Other observations

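Cluster 12, led by Clec10a and Cd209a, was left unnamed and held 434 cells of the wild-type-labelled library and 1311 of the SCD-labelled library, of which 26.2% were marked as doublets. It held Alox5ap at 506 (481 to 533) and 511 (497 to 525) CPM, between Ly6c-high monocyte-like and cDC2-like cells, and Hpgd at 374 (353 to 397) and 557 (542 to 572). Hpgds was at 148 (134 to 162) and 75.7 (70.4 to 81.4) CPM there, beside Vcam1 at 1749 and 1151. Ltc4s was lower in the SCD-labelled library in this cluster too, at 5.73 (3.34 to 9.17) and 1.84 (1.09 to 2.91) CPM. The part of free macrophage RNA in this difference was not tested.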
